A study of Mus musculus with 48 samples.

Results

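Matricellular proteins are secreted into the matrix around cells, where they bind collagens, growth factors and cell surface receptors. Most of them, though not fibronectin, do not form fibres themselves. In adult tissue many of them are scarce, and they return during wound repair, mechanical loading and inflammation. In the joint they are made mainly by stromal cells of the synovium, tendon, cartilage and bone, and their receptors include integrins, CD44, CD36, CD47 and syndecans. The 10 genes described here were chosen by name. They encode periostin (*Postn*), tenascin C (*Tnc*), osteopontin (*Spp1*), SPARC and its relative SPARC-like 1 (*Sparc*, *Sparcl1*), the thrombospondins 1 and 2 (*Thbs1*, *Thbs2*), fibronectin (*Fn1*) and the CCN proteins 1 and 2. The last pair were listed in the count table under their older symbols *Cyr61* and *Ctgf*, and are called *Ccn1* and *Ccn2* here. All 10 were found among the 34586 genes of the table.

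Single cells of joint, lung, muscle, skin and spleen were profiled by Seq-Well, in which a cell and a bead carrying its barcode settle together in a tiny well and transcripts are counted by unique molecular identifiers (UMIs). The mice were males of the strain DBA1/J, aged 8-12 weeks. The 6 mice with collagen-induced arthritis (CIA) had received bovine type II collagen with complete Freund's adjuvant and a later booster with incomplete adjuvant, and the 4 healthy mice had received PBS. Arthritis was severe in S1, S2 and S3 and mild in S5, S6 and S8. The names H and S mark healthy and CIA mice. Joint samples came from 3 healthy mice (H3, H4 and H7) and 5 CIA mice (S1, S3, S5, S6 and S8), and the other organs from all 10 mice. Sample names carried the prefix CIA or 2CIA, taken here as an experiment. All 3 severe mice and H3 had the prefix 2CIA and all others CIA, so severity and experiment cannot be told apart among the CIA mice. The model gives systemic immunisation with adjuvant in every CIA mouse, and the healthy mice were not given adjuvant, so effects of arthritis and of adjuvant cannot be told apart either.

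The 48 samples held 12096 cells with 1 of 13 cell types in the authors' annotation. A sample held 30 to 1989 of these cells and 17748 to 1645734 UMIs, and the median cell of a sample held 512 to 933 UMIs. The shallowest organ was lung, with at most 126321 UMIs in a sample. Of 13164 distinct barcodes, 59 occurred in more than 1 sample, of which 36 were shared by the muscle and spleen of S8 and 7 by the joint of H4 and the muscle of H3. The cells with a shared barcode numbered 112 and held 18 of 1660 *Spp1* UMIs, 1 of 266 *Tnc* UMIs and 0 of 1023 *Postn* UMIs. Levels are given as CPM, meaning UMIs of a gene per 1000000 UMIs of the same cells of 1 mouse, and the mouse is the replicate. The UMIs were counted at the 3′ end of transcripts, so levels of different genes are not compared beyond their counts.

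In build GRCm38, with GENCODE vM21 gene limits, *Postn* spans chr3:54361109-54391037 on the plus strand and *Ccn1* chr3:145646976-145649981 on the minus strand. *Tnc* spans chr4:63959785-64047015 on the minus strand. *Spp1* spans chr5:104435118-104441050 on the plus strand and *Sparcl1* chr5:104079111-104113733 on the minus strand, within the same cluster of genes for secreted calcium-binding phosphoproteins. The RefSeq promoter table of GRCm38.p6 held 9 promoters of 6 of the 10 members, and none for *Sparcl1*, *Thbs1*, *Fn1* or *Ccn2*. The 250 bases before the start are shown for *Postn* and *Tnc*, which carry the joint result below, and for *Ccn1*, which was not called in the same cells. They are written 5′ to 3′ on the strand of the gene, with matches to TATAAA, and to GGAATG on either strand, in capitals.
Postn, chr3:54360857-54361106, plus strand: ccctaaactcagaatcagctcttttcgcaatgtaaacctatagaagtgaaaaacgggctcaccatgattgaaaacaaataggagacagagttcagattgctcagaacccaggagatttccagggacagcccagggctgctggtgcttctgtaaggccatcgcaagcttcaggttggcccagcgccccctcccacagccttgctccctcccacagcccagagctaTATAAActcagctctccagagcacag
Tnc, chr4:64047016-64047265, minus strand: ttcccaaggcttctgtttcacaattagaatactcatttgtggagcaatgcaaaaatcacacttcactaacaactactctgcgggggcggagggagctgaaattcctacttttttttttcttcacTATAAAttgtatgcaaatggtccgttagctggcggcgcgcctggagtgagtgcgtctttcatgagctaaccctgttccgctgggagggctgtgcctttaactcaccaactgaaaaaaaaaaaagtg
Ccn1, chr3:145649986-145650235, minus strand: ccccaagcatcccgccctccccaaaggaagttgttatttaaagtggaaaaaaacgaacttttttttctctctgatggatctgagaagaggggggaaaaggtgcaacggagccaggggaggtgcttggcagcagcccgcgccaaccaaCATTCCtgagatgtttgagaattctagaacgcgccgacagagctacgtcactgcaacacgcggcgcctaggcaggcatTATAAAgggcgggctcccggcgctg

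TATAAA, the letters of a TATA box, was searched on the strand of the gene. It began 26 bases before the start of this *Postn* transcript and 25 bases before that of *Ccn1*, but 126 bases before that of *Tnc*. The other *Postn* start in the table had no match, and at the other *Tnc* start it began 205 bases before the start. Only the exact letters TATAAA were searched, so other forms of a TATA box were not looked for in any of these promoters. At least 1 promoter of 4 of the 6 members held it, namely *Postn*, *Tnc*, *Spp1* and *Ccn1*, against 8.94% of all 27025 genes in the table. The AP-1 letters TGANTCA, where N is any base, were in none of the 9 member promoters and in 6.75% of all 32851 promoters. GGAATG, the letters bound by TEAD factors, was searched on both strands and found only in the *Ccn1* promoter, beginning 103 bases before the start, and in 12.6% of all promoters. These matches describe letters and not binding.

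Fibroblasts held most of the UMIs of 8 of the 10 members. The 1322 annotated fibroblasts held 13.6% of all UMIs in the data, but 89.4% of those of *Thbs2*, 85.5% of *Ccn2*, 83.2% of *Sparc*, 82.7% of *Tnc*, 79.9% of *Postn*, 75.5% of *Fn1*, 62.4% of *Ccn1* and 61.7% of *Spp1*. *Sparcl1* and *Thbs1* were the exceptions, with 47.6% and 27.3%. These shares pool the UMIs of all mice, so mice with many UMIs weigh more. *Sparc* was among the study's own fibroblast markers, so its place in fibroblasts is partly given by the annotation, and cell types were not tested against each other. The label was checked on the other fibroblast markers of the study. All 7 (*Col1a2*, *Col3a1*, *Fbln2*, *Fstl1*, *Gsn*, *Mmp2* and *Vim*) were detected in joint fibroblasts of both groups, with a summed level of 19900 to 35860 CPM in healthy and 15770 to 40570 CPM in CIA mice.

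**Figure D1:**
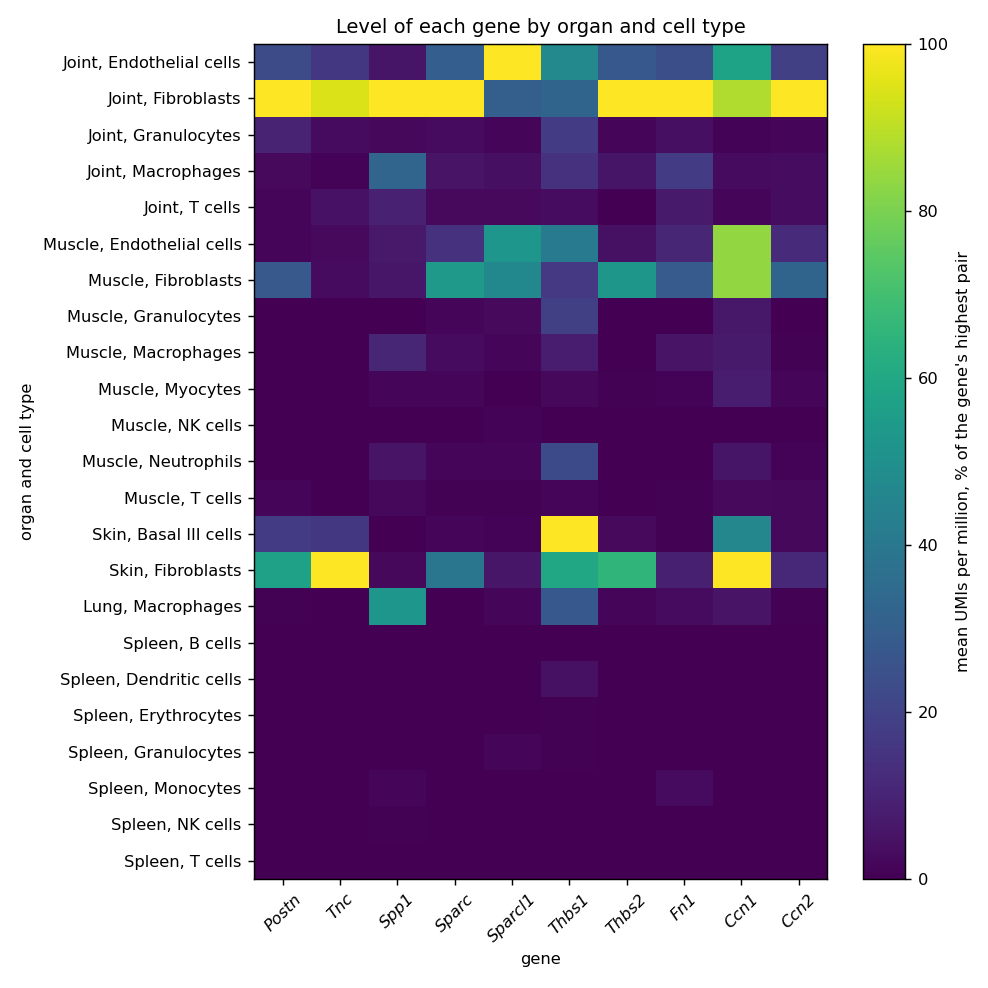
Colour gives the mean CPM of each gene over mice with at least 10 cells of a type, as a percentage of the gene's highest pair of organ and cell type, for the 23 pairs with at least 3 such mice. Joint fibroblasts were the highest pair for *Postn*, *Spp1*, *Sparc*, *Thbs2*, *Fn1* and *Ccn2*, while *Sparcl1* was highest in joint endothelial cells, *Thbs1* in skin basal III cells, and *Tnc* and *Ccn1* in skin fibroblasts. The means pool healthy and CIA mice. For *Postn*, which was higher in joint fibroblasts of CIA mice, the map does not give the order in healthy mice.

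By organ, the joint held 10550 of 14466 *Sparc* UMIs and 773 of 1023 *Postn* UMIs. Of these joint UMIs, the CIA mice S1 and S5 held 4025 and 4925 of *Sparc* and 242 and 470 of *Postn*. The pooled joint counts thus describe mainly these CIA mice. The spleen, with 10 samples, held 1 *Sparc* UMI, 0 of *Postn*, *Tnc*, *Thbs2*, *Ccn1* and *Ccn2*, and 33 of *Fn1*. The map of levels by organ and cell type shows this contrast.

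The levels by organ and cell type pool healthy and CIA mice with at least 10 cells of the type. *Sparc*, a collagen-binding chaperone of matrix assembly, was highest in joint fibroblasts at 8578 ± 5485 CPM (SD, n = 6 mice). Muscle fibroblasts followed at 4618 ± 1754 (n = 8) and skin fibroblasts at 3371 ± 1749 (n = 9). Endothelial cells came next in the order, at 2574 ± 1711 CPM in joint (n = 5). The muscle and skin fibroblasts were within 1 SD of each other, and both means lay within the SD of joint fibroblasts. *Sparcl1*, a counter-adhesive relative of *Sparc*, had another order. It was highest in joint endothelial cells at 1306 ± 499 CPM (n = 5), then in muscle endothelial cells at 688 ± 361 (n = 4) and muscle fibroblasts at 610 ± 334 (n = 8), and these last 2 were within their spread.

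*Thbs1*, an activator of latent TGF-beta that platelets and many stressed cells release, was highest in basal III cells of skin, a type with the keratinocyte genes *Krt14* and *Krt5*, at 406 ± 185 CPM (n = 10). Skin fibroblasts followed at 243 ± 142 CPM (n = 9), joint endothelial cells at 191 ± 154 (n = 5), muscle endothelial cells at 166 ± 199 (n = 4) and joint fibroblasts at 130 ± 83.7 (n = 6), each within 1 SD of the next. *Thbs2*, a thrombospondin of collagen fibril assembly, was at 185 ± 138 CPM in joint (n = 6), 121 ± 50.4 in skin (n = 9) and 98.3 ± 103 in muscle fibroblasts (n = 8), and these did not differ beyond their spread. *Fn1* was highest in joint fibroblasts at 1433 ± 894 CPM (n = 6), above muscle fibroblasts at 412 ± 314 (n = 8).

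Both CCN genes, which are known targets of the mechanosensitive regulators YAP and TAZ, differed in their order. *Ccn1* was at 398 ± 201 CPM in skin (n = 9), 351 ± 106 in joint (n = 6) and 333 ± 261 in muscle fibroblasts (n = 8), and at 333 ± 190 in muscle endothelial cells (n = 4), so the first 4 places did not differ beyond their spread. *Ccn2* was at 450 ± 386 CPM in joint (n = 6), 146 ± 149 in muscle (n = 8) and 50.1 ± 56.7 in skin fibroblasts (n = 9). The muscle mean lay within the SD of joint fibroblasts.

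Patterns over the 23 pairs of organ and cell type were compared by Pearson's r of log2(mean CPM + 10), as a description over pairs that share libraries. Among 6668 genes with at least 200 UMIs, the genes most like *Sparc* were the small proteoglycan gene *Dcn* (r = 0.98) and the collagen genes *Col3a1* (0.975) and *Col1a2* (0.968). The genes most like *Postn* were *Mmp3* (0.947), *Gas1* (0.945) and *Abi3bp* (0.93), and those most like *Tnc* were *Enpp2* (0.959), *Col11a1* (0.906) and *Cxcl5* (0.89). *Spp1* had the lowest values, with *Vim* (0.828), *Dab2* (0.815) and the member *Fn1* (0.799) nearest. *Sparcl1* was nearest to the vessel collagen genes *Col4a2* (0.968) and *Col15a1* (0.941), with *Ltbp4* (0.95) between them. *Thbs1* was nearest to *Cxcl1* (0.921), *Jag1* (0.916) and *Cd9-ps* (0.905), and *Thbs2* to *Col6a1* and *Nov* (both 0.973) and *Antxr1* (0.971). *Fn1* was nearest to *Selenom* (0.908), *Timp1* (0.894) and *Timp2* (0.891). *Ccn1* was nearest to *Nfib* (0.957), *Wwtr1* (0.949), which encodes TAZ, and *Plat* (0.945), and *Ccn2* to *Thbs4* (0.966), *Ecm2* (0.965) and *Col5a2* (0.963). Between members, the highest values were 0.918 for *Thbs2* with *Ccn2*, 0.917 for *Postn* with *Thbs2*, 0.899 for *Sparc* with *Ccn2* and 0.887 for *Postn* with *Tnc*.

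The first comparison asked how the members differed between CIA and healthy mice in each cell type, starting with joint fibroblasts. *Postn* and *Tnc* were higher in the joint fibroblasts of CIA mice. *Postn* encodes a collagen-binding protein of ligament and periosteum, and *Tnc* a large hexameric protein of tendon and injured tissue that can activate TLR4. The groups held 3 CIA mice (S1, S3 and S5, with 398 fibroblasts) and 3 healthy mice (192 fibroblasts), since S6 and S8 had fewer than 10 joint fibroblasts. *Postn* was at 47.5, 31 and 51.8 CPM in H3, H4 and H7, and at 960, 379 and 1486 CPM in S1, S3 and S5. The lowest CIA mouse thus stood above the highest healthy mouse. The mean was 942 ± 554 CPM in CIA and 43.4 ± 11 CPM in healthy mice (SD, n = 3 each), a log2 fold change of 4.39 ± 0.62 (SE, adjusted p = 0.0276, edgeR quasi-likelihood test with Benjamini-Hochberg adjustment over 1014 genes).

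*Tnc* had a single UMI in the healthy mice, in H4, which gave 15.5 CPM there and 0 in H3 and H7. In the CIA mice it was at 224, 189 and 305 CPM in S1, S3 and S5, from 48, 13 and 86 UMIs, again with no overlap. The means were 239 ± 59.3 and 5.16 ± 8.94 CPM, with a fitted log2 fold change of 5.05 ± 0.85 (adjusted p = 0.0281, edgeR). With 147 UMIs in CIA and 1 in healthy mice, the ratio of the pooled levels was 43.3, with a 95% exact counting interval of 7.65 to 1720. The healthy UMI lay in a cell whose barcode was shared with another sample. Without such cells the healthy mice held 0 *Tnc* UMIs, and the pooled level was at least 14.2-fold higher in CIA, against a floor of 3 counts over the group, with *Tnc* still called (adjusted p = 0.0348, edgeR).

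**Figure D2:**
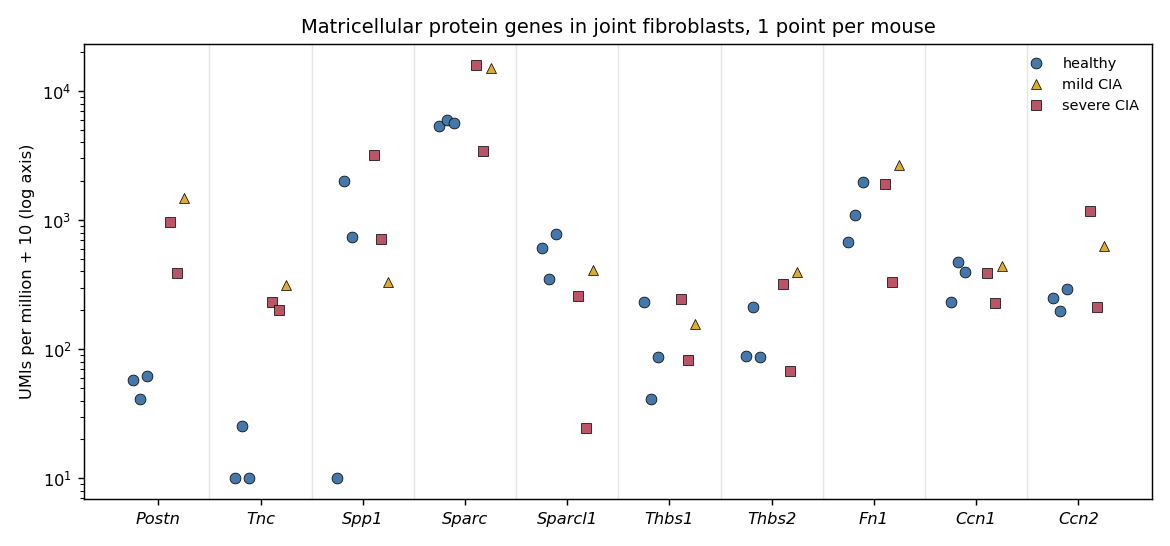
Each point is the level of a gene in the joint fibroblasts of 1 mouse with at least 10 such cells, as CPM plus 10 on a log axis, for 3 healthy mice and for CIA mice with mild (1) or severe (2) arthritis. For *Postn* and *Tnc* all 3 CIA mice lie above all 3 healthy mice, while the groups overlap for *Spp1*, *Sparc*, *Fn1*, *Ccn1* and *Ccn2*.

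The filter on low counts kept 9 of the 10 members, all but *Thbs1*, and 2 of these 9 were called. These 2 passed the filter only through the CIA mice, since each healthy mouse held 2 to 3 *Postn* and 0 to 1 *Tnc* UMIs. The count of called members and the median below are thus descriptions and no further support. Among all 1014 genes tested, 1.68% were called, and in 18.1% the 3 CIA mice lay above the 3 healthy mice. The median log2 fold change was 0.95 over the 9 members and 0.0633 over all genes tested.

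The other members of joint fibroblasts did not pass the test. *Ccn2* was at 237, 186 and 285 CPM in the healthy mice and at 1165, 204 and 624 CPM in S1, S3 and S5, with S3 inside the healthy range (log2 fold change 1.47 ± 0.57, adjusted p = 0.237, edgeR). *Sparc* was at 5302, 5992 and 5616 CPM in the healthy mice and at 15990, 3439 and 15130 CPM in the CIA mice. The CIA mice S1 and S5 stood above, and S3 below, every healthy mouse (0.95 ± 0.60, adjusted p = 0.444, edgeR). *Sparcl1* was lower on average, at 221 against 573 CPM (−1.31, adjusted p = 0.381, edgeR), and the mice overlapped. *Spp1* ranged from 0 to 2013 CPM in healthy and from 319 to 3169 CPM in CIA mice. *Fn1*, *Ccn1* and *Thbs2* overlapped as well.

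*Postn* was detected in 66 of 182 cells of S1, 15 of 56 of S3 and 83 of 160 of S5, and in 2 to 3 cells of each healthy mouse. The 5 highest cells held 34.5% of the *Postn* UMIs of S1, 61.5% of the 26 of S3 and 21.7% of those of S5. *Tnc* was detected in 28, 9 and 47 cells of these mice, of which 15, 5 and 27 also held *Postn*. Over all mice *Postn* was seen in 40.9% of 411 CIA fibroblasts (95% exact interval 36.1% to 45.8%) and 3.65% of 192 healthy fibroblasts (1.48% to 7.37%). After thinning each cell to 400 UMIs, since the median cell held 1145 UMIs in CIA and 717 in healthy mice, the shares were 24.3% and 1.7%. For *Tnc* they were 21.4% and 0.521% before, and 8.21% and 0.0748% after thinning. These intervals cover counting error only.

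Joint T cells, which are not a known source of periostin, held a *Postn* UMI in 2.27% of 132 CIA cells (median 858 UMIs), granulocytes in 3.04% of 723 and macrophages in 3.29% of 243. In joint endothelial cells of CIA mice the share was 15.9% of 214 cells (median 834.5 UMIs, 8.16% after thinning), and in healthy mice 0 of 44 cells, which allows up to 6.82%. In S5, the ratio of *Postn* to *Sparc* UMIs was 9.82 per 100 in fibroblasts, 10.2 in granulocytes, 11.9 in macrophages, 6.45 in T cells and 6.27 in endothelial cells. In S1 it was 6.0 in fibroblasts, 3.39 in granulocytes, 7.14 in macrophages and 6.24 in endothelial cells. Outside fibroblasts and endothelial cells these ratios rest on 2 to 19 *Postn* UMIs. In S5, the same ratio for *Thbs1* was 0.961 per 100 in fibroblasts and 20.3 in granulocytes (38 *Thbs1* to 187 *Sparc* UMIs).

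Markers of other cells moved with the CIA group in these fibroblasts. The 4 granulocyte markers (*Camp*, *Ngp*, *S100a8* and *S100a9*) summed to 1393 to 5900 CPM in healthy and 13230 to 29490 CPM in CIA mice. The 5 chondrocyte markers summed to 170 to 518 CPM, with *Col9a1* and *Matn3* at 0, in healthy mice, and to 583 to 4274 CPM in CIA mice with all 5 detected. The 4 tenocyte markers summed to 336 to 511 CPM in healthy mice, with *Mkx* at 0, and 43.7 to 1447 CPM in CIA mice. The 5 osteoblast markers summed to 104 to 1363 CPM in healthy mice, with *Runx2* at 0, and 49.6 to 2363 CPM in CIA mice. The tenocyte and osteoblast ranges overlapped, and the part of any of these cells in the *Postn* and *Tnc* results was not tested.

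Leaving out any healthy mouse ended both calls. The adjusted p of *Postn* was then 0.104 without H3, 0.0794 without H4 and 0.0972 without H7, at log2 fold changes of 4.27 to 4.47, and that of *Tnc* was 0.117, 0.0794 and 0.107. Without S1 or S5, *Postn* alone was called and *Tnc* was not (adjusted p = 0.0682 and 0.0677), and without S3 *Ccn2* was called too (1.91, adjusted p = 0.0315, edgeR). With the experiment as a term, both genes were still called, at 4.55 and 5.21 (adjusted p = 0.0206 and 0.0283, edgeR).

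The genes that go with the members in the matrix were counted beside them in joint fibroblasts. Of 12 other matricellular and associated genes tested, 0 were called, with a median log2 fold change of −0.91. Of the 5 fibrillar collagen genes 0 were called, with a median of 1.43, and their summed level was 6237 to 18660 CPM in healthy and 20330 to 50200 CPM in CIA mice. Of 5 integrin and other receptor genes and 10 immediate early genes tested, 0 of each were called. DESeq2 also called *Postn* and *Tnc* (adjusted p = 1.5e-05 and 0.00463).

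Over all joint cells, *Postn* and *Tnc* were higher on average in CIA mice but did not pass the test. *Postn* was at 22.3, 14.2 and 27.8 CPM in H3, H4 and H7, and at 379, 235, 399, 350 and 26 CPM in S1, S3, S5, S6 and S8. Mouse S8, with 4 joint fibroblasts among 83 cells, lay inside the healthy range and the other 4 CIA mice far above it. The log2 fold change was 3.91 ± 0.78 for *Postn* (adjusted p = 0.0736) and 5.03 ± 1.23 for *Tnc* (adjusted p = 0.118, edgeR). None of the 10 members was called, against 0.127% of 2364 genes. In whole-organ sums, fewer cells of a type and less RNA per cell cannot be told apart. Both genes were called without S8 (adjusted p = 0.00461 and 0.0329), by DESeq2 (0.000612 and 0.0195), and in the edgeR fit of every gene with at least 1 count (8.67e-05 and 0.00153), in which 0.274% of 24079 genes were called.

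In joint macrophages, *Spp1*, an integrin and CD44 ligand that activated macrophages and bone cells secrete, was the 1 member that passed the filter on low counts. It was at 0, 672 and 169 CPM in H3, H4 and H7, and at 980, 607, 205 and 0 CPM in S1, S3, S5 and S8. The groups overlapped throughout (adjusted p = 0.648, edgeR), while 10.3% of the 273 genes tested were called. *Thbs1* had 0 UMIs in the macrophages of the 3 healthy mice, and 6, 2, 6 and 3 UMIs in those of S1, S3, S5 and S8. The pooled level was at least 1.55-fold higher in CIA, against a floor of 3 counts over the healthy mice. In the fit of every gene it was not called (adjusted p = 0.608, edgeR), and 1.74% of genes there had all CIA mice above all healthy mice. No gene of the lists of other matricellular genes, receptors and fibrillar collagens was called in these cells, where 1 of their genes passed the filter. Of 4 immediate early genes tested, *Fos* fell by 1.70 on the log2 scale (adjusted p = 0.00997, edgeR).

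The next comparison set severe against mild arthritis in the joint. In fibroblasts, *Spp1* was at 3169 and 699 CPM in the severe mice S1 and S3, and at 319, 104 and 0 CPM in the mild mice S5, S6 and S8. Both severe mice lay above all mild mice, and the two-sided exact permutation test gave p = 0.1, the smallest that 2 against 3 mice allow. The share of all genes with that order of mice was not counted in fibroblasts. S6 and S8 had 9 and 4 fibroblasts. With at least 10 cells per mouse, S5 was the only mild mouse left, and 2 against 1 mice allow no exact p under 0.333, so that comparison could not pass a threshold of 0.05. In S1, 66.2% of the *Spp1* UMIs came from 5 cells, 1 of which held 217 UMIs. In S3, 95.8% of the 48 *Spp1* UMIs came from 5 cells, 1 of which held 34. The place of both severe mice above the mild mice thus rests on few cells. *Postn* was at 669 ± 411 CPM in severe (n = 2) and 1137 ± 330 CPM in mild mice (n = 3), with an exact permutation p of 0.3. *Tnc* was at 207 ± 24.2 and 311 ± 313 CPM, with an exact permutation p of 0.7. The exact p of the other 7 members ranged from 0.3 to 1, of 10 members tested.

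Over all joint cells, *Spp1* was at 1285 and 502 CPM in S1 and S3, and at 113, 143 and 13 CPM in S5, S6 and S8. The severe mice again lay above the mild ones, with a log2 difference of 3.18 ± 1.12 that did not pass the test (adjusted p = 0.999, edgeR). The healthy mice were at 5.57, 1012 and 445 CPM, so H3 lay below every mild mouse, H4 between S3 and S1, and no healthy mouse reached S1. No gene was called, 0% of 2944, and 11.9% had both severe mice above all mild mice. In the fit of every gene *Spp1* was called (adjusted p = 0.0139, edgeR), as were 0.0623% of 24079 genes. The 5 osteoblast markers, whose cells are a known source of osteopontin, summed to 510 and 858 CPM in the severe and 26 to 47.8 CPM in the mild joints, and their part in this was not tested. The values of *Postn*, *Tnc* and the other members overlapped between severities. In macrophages, *Spp1* was at 980 and 607 CPM in severe and 205 and 0 CPM in mild mice (adjusted p = 0.999, edgeR), and 0% of 333 genes were called. All comparisons of severity are also comparisons of the 2 experiments.

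Fibroblasts held most *Spp1* UMIs of the joint in H4, H7, S1, S3 and S5. Of the 821 *Spp1* UMIs of S1, 680 lay in fibroblasts and 92 in macrophages, and of the 133 of S5, 90 and 27. H4 held 142, of which 130 were in fibroblasts, and H3 a single *Spp1* UMI in 173 joint cells and 0 in 73 fibroblasts. In S6 and S8, with few fibroblasts, these cells held 2 of 9 and 0 of 1.

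**Figure D3:**
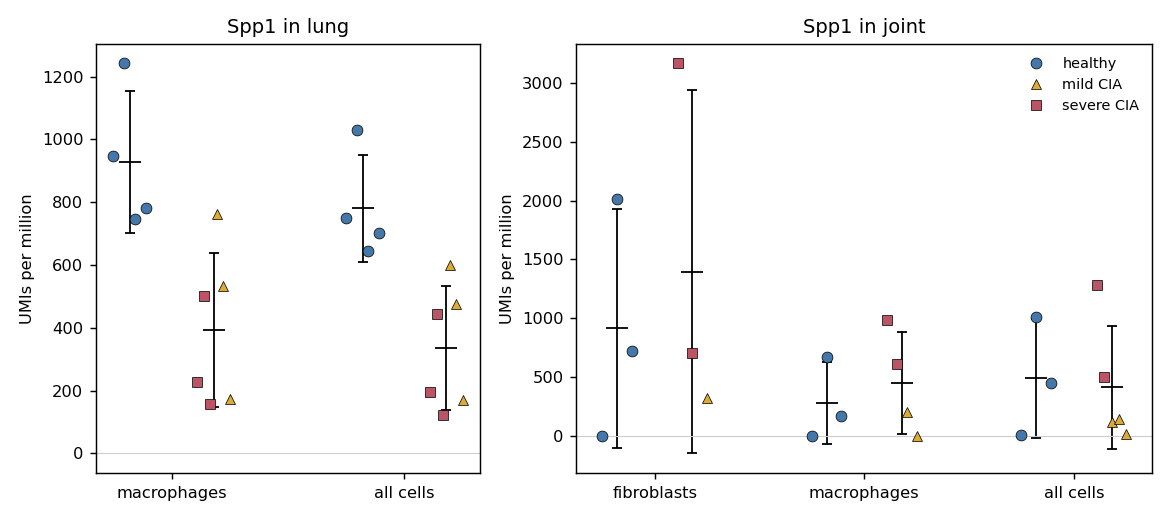
Each point is the *Spp1* level in CPM of 1 mouse with at least 10 cells of the type (or all annotated cells), and the bars give the mean and SD of healthy and of CIA mice. In lung the CIA mice lie mostly below the healthy mice, and in joint the severe mice lie above the mild mice, with S1 above and the other CIA mice among the widely spread healthy mice.

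In lung macrophages, *Spp1* was lower in CIA mice. It was at 946, 1242, 746 and 782 CPM in H3, H4, H6 and H7. In CIA mice it was at 158 CPM in the lowest (S3), 762 CPM in the highest (S5) and 229, 500, 534 and 174 CPM in S1, S2, S6 and S8. Only S5 reached the healthy range, above H6. The mean was 393 ± 244 CPM in CIA (n = 6) and 929 ± 226 CPM in healthy mice (n = 4), and the log2 fold change fell by 1.31 ± 0.36 (adjusted p = 0.0343, edgeR), with 6.51% of 538 genes called. *Spp1* was the only member that passed the filter there. The share of macrophages with an *Spp1* UMI was 13.5% of 393 cells in CIA and 33.8% of 284 in healthy mice, and 9.81% and 25.2% at 400 UMIs per cell. In lung T cells the share was 0 of 35 cells in CIA mice, which allows up to 8.57%, and 2.33% of 43 in healthy mice.

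The call was lost without H3, H4, S1, S2, S3 or S8 (adjusted p between 0.0559 and 0.139), with the experiment as a term (0.0603), and within the experiment CIA alone, where the log2 value was −0.88 (adjusted p = 0.505, edgeR). The 4 granulocyte markers summed to 356 to 545 CPM in healthy and 580 to 14700 CPM in CIA lung macrophages, and the 6 macrophage markers to 24360 to 28690 CPM and 16180 to 25320 CPM. Their part in the *Spp1* result was not tested. In all lung cells, *Spp1* was at 645 to 1029 CPM in healthy and 121 to 602 CPM in CIA mice, with no overlap (fell by 1.27 on the log2 scale, adjusted p = 0.0409, edgeR). That call was lost without any one of H3, H4, H7, S1, S2, S3 and S8 (adjusted p between 0.0537 and 0.18). Here 4.96% of 686 genes were called and 1.9% had all CIA mice below all healthy mice. *Sparc*, which the filter removed there, was called lower in the fit of every gene, in which 0.435% of genes were called, on 46 UMIs in healthy and 6 in CIA mice. Of the 46, 24 came from H3 and 18 from H4, and without H3 the call was lost (adjusted p = 0.609, edgeR), as it was in the experiment CIA alone (−1.19, adjusted p = 0.723).

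In skin, *Postn* was higher in the severe mice. Its level in skin fibroblasts was 106, 0, 149 and 52.9 CPM in H3, H4, H6 and H7, and 395, 706 and 946 CPM in the severe mice S1, S2 and S3. The mild mice S5 and S8, at 55.6 and 127 CPM, lay inside the healthy range. The filter removed *Postn*, and in the fit of every gene its log2 fold change was 2.59 ± 0.59 for CIA against healthy mice (adjusted p = 0.0193, edgeR), with 0.0766% of 15661 genes called. The call was lost without H3, H4, H7, S2 or S3 (adjusted p between 0.0673 and 0.613) and with a minimum of 5 cells per mouse (0.341). In basal III cells, epidermal cells for which 3 healthy and 86 CIA *Postn* UMIs were counted, the level was 0 to 21.8 CPM in healthy mice, 83, 397 and 234 CPM in S1, S2 and S3, and 15.4 to 54.1 CPM in the 3 mild mice. The pooled ratio of CIA to healthy mice was 13.7, with a 95% exact counting interval of 4.52 to 67.6 (adjusted p = 0.000179, edgeR, fit of every gene, 0.0818% of 18338 genes called), and without S2 the call was lost (adjusted p = 0.253). With the experiment as a term neither cell type kept it (adjusted p = 0.927 and 0.894).

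In all skin cells, *Postn* was at 0 to 53.6 CPM in healthy mice, 197, 445 and 328 CPM in S1, S2 and S3, and 28 to 43.2 CPM in S5, S6 and S8. All 3 severe mice lay above every mild and healthy mouse. The share of all genes with that order of mice was not counted in skin. The log2 fold change of CIA against healthy mice was 2.71 ± 0.45 (adjusted p = 3.34e-06, edgeR, fit of every gene, with 0.152% of 21082 genes called). Severity and experiment coincide here. The healthy mouse of the experiment 2CIA, H3, was at 40.7 CPM, among the other healthy mice. With the experiment as a term the adjusted p was 0.914, and in the experiment CIA alone, with 3 mild and 3 healthy mice, the log2 value was 0.14 (adjusted p = 0.977, edgeR). In these 3 skin comparisons, 0% of the genes that passed the filter were called.

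**Figure D4:**
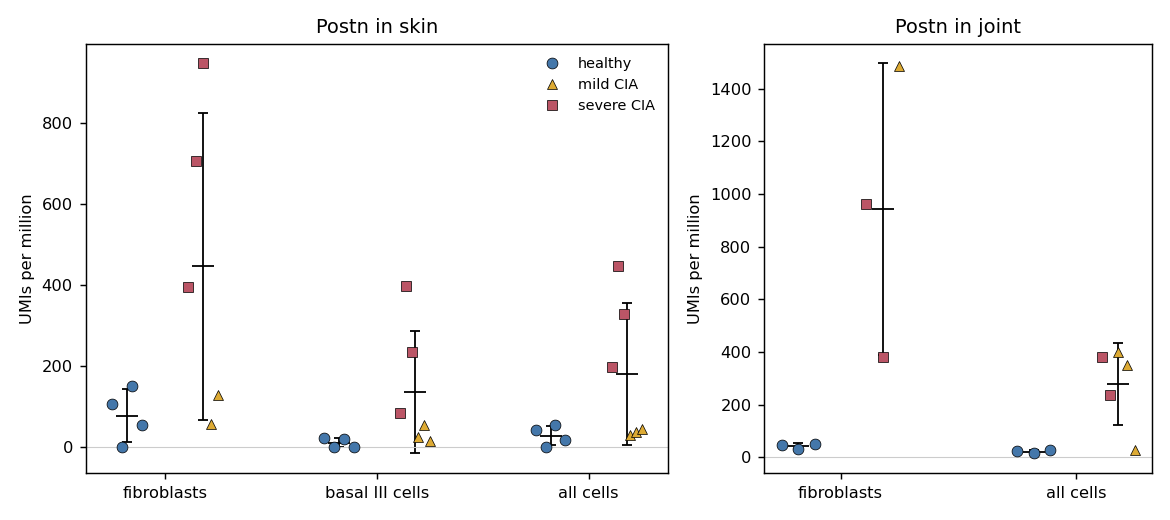
Each point is the *Postn* level in CPM of 1 mouse with at least 10 cells of the type (or all annotated cells), and the bars give the mean and SD of healthy and of CIA mice. In skin the 3 severe mice lie above the mild and healthy mice, and in joint the mild mice S5 and S6 lie as high as the severe ones.

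In skin basal III cells, *Postn* UMIs were seen in 9.14% of 514 CIA and 1.52% of 197 healthy cells, at median depths of 741 and 896 UMIs. In skin macrophages of CIA mice they were seen in 0 of 37 cells, which allows up to 8.11%. The 7 fibroblast markers summed to 210 to 539 CPM in basal III cells of the severe mice, 484.5 to 1082 CPM in those of the mild mice and 329 to 537 CPM in those of healthy mice. In skin fibroblasts they summed to 13970 to 16790 CPM in severe, 7131 and 7676 CPM in mild and 7981 to 23320 CPM in healthy mice. The part of these markers in the *Postn* result was not tested.

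*Ccn2* had 0 UMIs in the skin fibroblasts of the 4 healthy mice (128 cells) and was detected in all 5 CIA mice, at 98.6, 160, 52.5, 55.6 and 84.4 CPM in S1, S2, S3, S5 and S8. The pooled level was at least 4.52-fold higher in CIA, against a floor of 3 counts over the healthy mice. The gene was not called (adjusted p = 0.184, edgeR, fit of every gene), and 0.275% of genes there had all CIA mice above all healthy mice. *Tnc* in skin fibroblasts was at 44.3 to 159 CPM in healthy and 0 to 480 CPM in CIA mice, with 36 of its 44 CIA UMIs from S2. *Thbs1* was at 485 ± 115 CPM in basal III cells of CIA (n = 6) and 287 ± 223 CPM of healthy mice (n = 4), with overlap (adjusted p = 0.893, edgeR).

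In muscle fibroblasts the filter kept *Sparc* alone, at 5323 ± 1694 CPM in CIA and 3913 ± 1728 CPM in healthy mice (n = 4 each, adjusted p = 0.731, edgeR), and 0% of 173 genes were called. *Postn* was detected in H4 alone of the healthy mice, at 153 CPM, and was at 744, 0, 30.6 and 173 CPM in S1, S2, S5 and S6. Of the other members, *Ccn2* had 3 healthy and 43 CIA UMIs, a pooled ratio of 2.67 with a counting interval of 0.854 to 13.5. No member was called in muscle macrophages (0.183% of 545 genes called), muscle T cells (0.0511% of 1957), all muscle cells (0.055% of 3634), spleen B cells (0% of 1252), spleen monocytes (6.36% of 456), spleen NK cells (0% of 421) or all spleen cells (0.137% of 2927). In all of these except all muscle cells, where 5 members were tested, 0 members passed the filter. In muscle macrophages, *Sparc* had 3 healthy and 66 CIA UMIs, a pooled ratio of 7.02. Its counting interval of 2.3 to 34.9 leaves out the spread between mice. In the other direction, *Thbs1* there had 0 UMIs in CIA mice and 7 in healthy mice, all from 1 mouse.

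**Figure D5:**
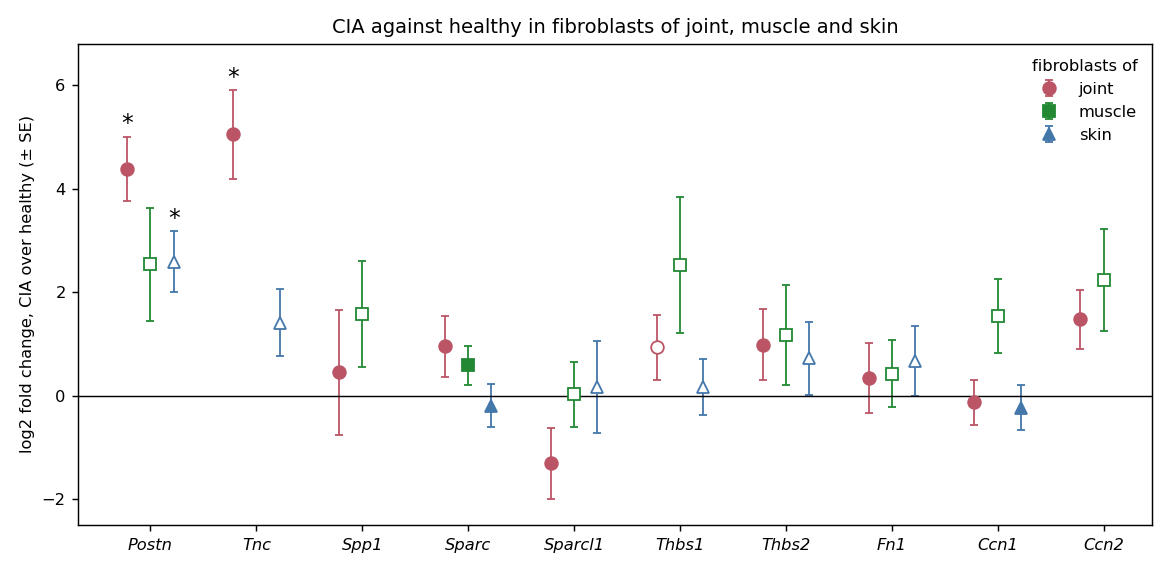
Points give the log2 fold change of CIA over healthy mice with its SE for fibroblasts of joint (3 and 3 mice), muscle (4 and 4) and skin (5 and 4). Filled points are from genes that passed the filter and open points from the fit of every gene, an asterisk marks an adjusted p under 0.05, and genes with 0 UMIs in a group are left out. Only *Postn* and *Tnc* in joint and *Postn* in skin carry an asterisk.

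Whether the disease effect in fibroblasts differed between organs was tested as an interaction over the 23 fibroblast samples. For *Postn* the effect was larger in joint than in skin by 1.88 ± 1.40 and larger in joint than in muscle by 2.11 ± 2.22 on the log2 scale, and neither passed the test (adjusted p = 0.756 and 0.856, edgeR). For *Tnc* the difference between joint and skin was 3.98 ± 1.38 (adjusted p = 0.943, edgeR, fit of every gene). Of all 1134 genes, 0.176% were called for joint against muscle and 0% for joint against skin, with 0 members in both. The difference in *Postn* and *Tnc* in joint fibroblasts was thus not shown to differ from the effect in muscle or skin.

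The last comparison set the fibroblasts of the 3 organs against each other, in a fit with disease as a term. Joint fibroblasts stood above skin fibroblasts in 5 of 9 members tested, while 24.2% of all 1134 genes were called. A gene scarce in 1 organ can pass this filter through another organ alone. Skin fibroblasts held 6 *Spp1* UMIs, all in healthy mice, and 20 *Ccn2* UMIs, all in CIA mice. The counts of called genes in these organ fits are thus descriptions and no further support. *Spp1* was at 1154 ± 1201 CPM in joint (n = 6) and 23.1 ± 48 CPM in skin (n = 9), a log2 difference of 5.93 ± 0.88 (adjusted p = 1.58e-05, edgeR). *Fn1* differed by 3.76 ± 0.50 (adjusted p = 4.92e-06), *Sparcl1* by 2.71 ± 0.63 (0.00223) and *Sparc* by 1.57 ± 0.36 (0.00201, edgeR). *Ccn2* differed by 3.40 ± 0.49 (adjusted p = 9.78e-06, edgeR), and every joint sample, at 186 to 1165 CPM, lay above every skin sample, at 0 to 160 CPM, as in 2.03% of genes. The remaining members, *Postn*, *Thbs1*, *Thbs2* and *Ccn1*, were not called, and *Tnc*, read from the fit of every gene, was at 122 ± 134 CPM in joint and 129 ± 146 CPM in skin. All 5 calls held with the mouse as a block.

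Between joint and muscle fibroblasts, 3 of 9 members tested were called, all higher in joint, with 4.67% of genes called. *Spp1* differed by 3.92 ± 0.78 (adjusted p = 0.00232), *Ccn2* by 2.16 ± 0.50 (0.00837) and *Fn1* by 1.92 ± 0.47 (0.0134, edgeR). *Tnc*, which the filter removed, was at 3.82 ± 10.8 CPM in muscle, from 6 UMIs in S5, and was called higher in joint in the fit of every gene (3.63 ± 0.76, adjusted p = 0.000564, edgeR), in which 1.15% of genes were called. *Postn* (2.68) and *Sparc* (1.53) were called in that fit too (adjusted p = 0.00118 and 2.82e-06), but not among the genes that passed the filter (0.0809 and 0.112). With the mouse as a block, *Ccn2* alone of the 3 was called, and *Spp1* (3.03) and *Fn1* (1.80) were not (adjusted p = 0.0737 and 0.133, edgeR). Without S1 *Ccn2* was not called (1.78, adjusted p = 0.113), and without H7, S5 or S6 *Fn1* was not (adjusted p = 0.0512 to 0.0687).

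Between muscle and skin fibroblasts, *Sparcl1* (3.21 ± 0.63, adjusted p = 0.000427) and *Fn1* (1.84 ± 0.53, 0.0121) were higher in muscle and *Thbs1* was higher in skin (−1.98 ± 0.59, 0.0147, edgeR), with 21.4% of genes called. *Tnc* was higher in skin in the fit of every gene (−3.50 ± 0.76, adjusted p = 0.000746, edgeR), in which 2.03% of genes were called. *Fn1* was not called without H3 (adjusted p = 0.0672), nor *Tnc* without S2 (0.0885). With the mouse as a block, *Sparcl1* alone was called. The adjusted p was then 0.165 for both *Fn1* and *Thbs1*, and 0.0862 for *Tnc*. All organs had been frozen and thawed before digestion. Organs were digested with different collagenases, so organ and digestion cannot be told apart in these comparisons.

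Genes of the matrix-related lists were counted in the same fits, in which 24.2% of all genes were called for joint against skin, 4.67% for joint against muscle and 21.4% for muscle against skin. Of 10 other matricellular genes tested, 6 were higher in joint than in skin fibroblasts. They included *Comp* (5.24), a cartilage and tendon member of the thrombospondin family, *Thbs4* (3.76), *Mfge8* (3.58), *Ecm1* (2.55) and *Tgfbi* (1.60, all log2 differences past the threshold). *Comp* (4.29, adjusted p = 0.000257) and *Mfge8* (1.96, 0.0449) were also higher in joint than in muscle fibroblasts (edgeR). In muscle against skin fibroblasts 4 of the 10 were higher in muscle, namely *Smoc2* (2.72), *Ecm1* (2.08), *Fbln1* (1.72) and *Dpt* (1.47). Of 5 receptor genes tested, *Lrp1*, an endocytic receptor for thrombospondins, was higher in joint than in skin (1.73) and *Sdc4* lower (−0.88), and *Cd44*, a receptor of osteopontin, and *Sdc4* were lower in muscle than in skin (−2.01 and −1.50). Of the 5 fibrillar collagen genes, *Col5a1* (2.67), *Col5a2* (1.67) and *Col3a1* (1.33) were higher in joint than in skin, and *Col5a2* (1.65) higher in joint than in muscle.

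Immediate early genes are a group that tissue dissociation can induce. Of 10 tested, 3 were higher in joint than in skin fibroblasts, *Fos* (1.53), *Ier2* (0.85) and *Egr1* (0.85), beside 24.2% of all genes called. In muscle against skin 4 were higher, *Fos* (1.20), *Egr1* (1.07), *Fosb* (0.95) and *Ier2* (0.80), beside 21.4% of all genes. With 10 genes in the list, neither the 3 nor the 4 was tested against the share of all genes. The part of the immediate early genes in the difference of *Ccn2*, a serum-responsive gene, between joint and skin was not tested.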

How the data were processed

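Per the labels and the study's methods, the authors demultiplexed reads with bcl2fastq, aligned them to GRCm38 with STAR, used Drop-seq tools to collapse molecular identifiers, and deposited raw UMI counts, not normalized, in a table of genes by cells, with text labels of cell type. They kept cells above limits on reads, transcripts and genes and below one on mitochondrial share. No doublet caller was run here. The table held 0 rows without a gene name, and 1144 of 13240 cells had no type and entered no comparison.

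For each mouse, the counts of a cell type with at least 10 cells were added up, where at least 3 mice of each group qualified. The sums were tested with edgeR 4.0.16 (quasi-likelihood, TMM, filterByExpr, R 4.3.3) and adjusted over all genes tested, with a threshold of 0.05. Members that the filter removed were read from a fit of every gene with at least 1 count. Standard errors came from the fold change and F statistic. Alternatives were DESeq2 1.42.0, RLE factors, plain library size, no filter, minimums of 5 and 20 cells, the experiment as a term or alone, the replicate number or the mouse as a block, a mean over cells, and leaving out shared barcodes or single mice. Organ samples with the same mouse name come from the same animal, which pairs them. Healthy and CIA mice with the same number are different animals. Severity in fibroblasts was compared by exact permutation. The members, the lists and the tests were chosen with earlier results of these data known. The genes named were the 10 members, at most 5 genes past the threshold per list and comparison by size of change, and the 3 genes most like each member. The fits were tested on simulated data. Python 3.11.15 with numpy 2.4.6, scipy 1.17.1, pandas 2.3.3 and matplotlib 3.10.9 was used for the rest.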

Additional observations from a re-analysis of the deposited data

Results flagged for a closer look

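Of 51 groups of 4 to 10 mice tested for a sample far from the rest (Dixon's test at 95%, by which chance marks about 1 group in 20), 3 held one, each time the CIA mouse S6 in skin. *Sparc* in basal III cells was at 216 CPM in S6 against 96.8 to 117 CPM in the other 5 CIA mice. *Thbs1* in basal III cells was at 703 CPM in S6 against 370 to 484 CPM in the others, and in all skin cells at 593 CPM against 336 to 430 CPM. The skin sample of S6 held 32 annotated cells, of which 20 were basal III cells, the fewest of any CIA mouse. Its levels thus rest on few UMIs, and 3 of 51 groups is near the rate that chance gives.

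Cells without a deposited type were in no comparison, and 2 members stood higher there in CIA than in healthy mice beyond their counting intervals. *Fn1* was at 294 CPM in muscle cells of this kind (36 UMIs in 3 of 6 CIA mice, 221 cells) and at 37.2 CPM in healthy mice (2 UMIs, 84 cells). *Sparc* was at 925 CPM in skin cells of this kind (66 UMIs in 6 of 6 CIA mice, 99 cells) and at 413 CPM in healthy mice (24 UMIs, 57 cells). In the other direction, *Spp1* in lung cells of this kind was at 1057 CPM in healthy (29 UMIs, 52 cells) and 230 CPM in CIA mice (6 UMIs, 56 cells). The counting intervals leave out the spread between mice, and no test over mice was made.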

How the results depend on the processing

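In joint fibroblasts, 2 members were called under every alternative of tool, scaling, filter and cell number, with the experiment as a term, and without shared barcodes. Leaving out 1 mouse gave 0 to 3 called members. In lung macrophages and all lung cells, leaving out 1 mouse gave 0 to 1 called members, and 0 were called with plain library size, with the experiment as a term, and in the experiment CIA alone. In the fit of every gene the *Spp1* call was lost in lung macrophages (0 members) and in all lung cells (−1.33, adjusted p = 0.0541, edgeR), where *Sparc* was the 1 member called. With the mouse number as a replicate block, which joins different animals, 0 members were called in both lung comparisons (*Spp1* at −1.23, adjusted p = 0.47 and 0.574, edgeR). No paired analysis of CIA against healthy mice was possible, because they are different animals. The replicate block was not fitted in joint, where fewer than 2 numbers are shared. In the fit of every gene, 2 members were called in all joint cells, 1 in each of the 3 skin comparisons, 1 for severe against mild joints and 6 for joint against muscle fibroblasts. In all joint cells, DESeq2 called 2 members and leaving out 1 mouse gave 0 to 2. For joint against muscle fibroblasts, the mouse as replicate block gave 1 and leaving out 1 mouse 2 to 6, and for muscle against skin fibroblasts 1 and 2 to 4. With the replicate block, *Postn* was not called in basal III cells (2.49) or all skin cells (1.57), nor *Sparc* in all lung cells (−2.67). Uncalled values that changed sign were *Sparc* in basal III cells (−0.58, to 0.0857 with the replicate block), *Sparcl1* in all muscle cells (−0.76, to 0.0804 in the experiment CIA alone, and −1.79 to 0.00315 leaving out 1 mouse), and, leaving out 1 mouse, *Ccn2* (−0.22 to 1.92) and *Sparcl1* (−4.68 to 0.2, and 0.141 without S6) for severe against mild joints, and *Postn* (−1.96 to 3.11) and *Spp1* (−2.28 to 1.28, and 0.962 without S5) for the difference between joint and muscle. The causes were not tested. Of the counts of called members recomputed, 339 stayed within 1.5 times the reported count and 39 did not. The 339 include comparisons in which 0 members passed the filter, whose count of 0 could hardly change. Of the 39, 11 were in lung macrophages, 11 in all lung cells and 5 in joint fibroblasts, where members had been called. Of the 10 members, 9 had enough counts to be tested in joint fibroblasts, 1 in lung macrophages and 2 in skin fibroblasts.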
